A study of Mus musculus with 8 samples.

Results

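The genes described here are 36 named targets and regulators of the transcription factor p53 in mouse CD8 T cells treated with GC7. The members were given as a list of gene symbols, and each symbol matched exactly 1 of the 55536 gene identifiers counted in the GRCm38 annotation. They comprise p53 itself (Trp53), 5 genes of its feedback control, 7 genes of cell cycle arrest, 12 genes of cell death, 6 genes of DNA repair and nucleotide supply and 5 genes of metabolism. These role groups are broad, with the ribosomal protein gene Rps27l placed under metabolism and Gtse1 and Ckap2 under cell cycle arrest. A gene was tested when its count exceeded 3 CPM (read counts scaled to a common library size) in at least 4 libraries, and 35 of the 36 members were among the 11189 genes tested.

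Messenger RNA was counted in 4 GC7 and 4 Mock libraries. All cells came from C57BL/6 mice that carry the OT-1 T cell receptor transgene on a Rag-1KO background, so that the receptor recognises the ovalbumin peptide SIINFEKL and no other lymphocyte specificity develops. In both groups, lymph node cells were stimulated with 100 nM SIINFEKL for 2 days and then expanded for 2 days in human IL-2 at 20 ng/mL. The GC7 group received 10 µM GC7 during the IL-2 culture and the Mock group received the vehicle. GC7 is a spermidine analogue that inhibits deoxyhypusine synthase, the first enzyme in the hypusination of the translation factor eIF5a, and the study's authors held that it also has effects apart from eIF5a. The ages of the mice were given only as a range for the study and not per library. The labels do not say which mouse or culture each library came from, so p-values measure the spread between these libraries.

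p53 is a transcription factor whose protein is kept low by the ubiquitin ligase Mdm2 and its partner Mdm4. Stress such as DNA damage or disturbed ribosome assembly frees p53 from Mdm2, and p53 then binds pairs of short half-sites in DNA and raises transcription of nearby genes. Its targets halt the cell cycle, repair DNA, adjust metabolism or kill the cell, and several of them, Mdm2 among them, act back to lower p53. In T cells p53 is known for restraining proliferation after stimulation. Messenger RNA does not report the amount or activity of p53 protein, which was not measured here.

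Total counts ran from 17528776 to 25284730 per library and did not differ detectably between the groups (two-sided exact permutation test, p = 0.429). The first principal component held 85.4% of the variance and separated GC7 from Mock, and Mock replicate 2 lay apart from the other Mock libraries on the second, which held 5.98%. The 7 markers of CD8 T cells were all tested, with 1 higher and 4 lower under GC7 at an FDR under 0.01. Over all tested genes the shares were 23.0% and 23.5%. Cd8a was higher, by 0.48 on the log2 scale. Cd3e (-0.23), Trac (-0.38) and the cytotoxic genes Gzmb (-0.61) and Prf1 (-1.46) were lower, with log2 fold changes in brackets. Cd3d and Cd8b1 passed the test in neither direction. Markers of other cell types summed to between 58.6 and 62.1 CPM in Mock and between 33.4 and 34.5 CPM in GC7 (two-sided exact permutation test, p = 0.0286, the smallest that 4 against 4 libraries can give). Nearly all of that sum was Pecam1 and Xcr1, while the other 18 of the 20 markers together held 1.84 to 3.04 CPM in Mock and 2.32 to 3.35 CPM in GC7, and 3 of them were at 0 in every library. In bulk RNA, fewer cells of a type and less RNA per cell cannot be told apart, and the part of these differences in the results below was not tested.

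The promoter sequences are shown first, because p53 acts through them. The members were listed as targets and regulators of p53, so their share of p53 sites is no independent evidence. Windows of 250 bases before to 50 bases after each RefSeq gene start (build GRCm38.p6) were found for 28 of the 36 members, 37 windows in all, and Trp53inp1, Pmaip1, Tnfrsf10b, Perp, Zmat3, Xpc, Ddb2 and Rrm2b had no entry. Both strands were searched for the p53 response element, which is a pair of 10-base p53 half-sites, here with a spacer of at most 1 base and at most 2 mismatches in all, with the C and the G of each half-site's core kept. A response element was found in 7 of the 37 windows (18.9%), each from a different gene, against 224 of 32851 windows (0.682%) over all RefSeq promoters. A single half-site without mismatch was found in 40.5% of member windows and in 8.36% of all windows. The 7 elements are printed 5′ to 3′ on the strand of the gene, with the element in capitals and 20 flanking bases on each side, except after the Gtse1 element.
Cdkn1a (chr17:29090908-29090967, plus strand): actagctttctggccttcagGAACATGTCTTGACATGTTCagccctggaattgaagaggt
Gtse1 (chr15:85859925-85859964, plus strand): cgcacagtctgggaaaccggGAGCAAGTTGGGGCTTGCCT
Ckap2 (chr8:22185983-22186042, minus strand): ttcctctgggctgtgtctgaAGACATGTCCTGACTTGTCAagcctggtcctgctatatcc
Ccng1 (chr11:40755442-40755501, minus strand): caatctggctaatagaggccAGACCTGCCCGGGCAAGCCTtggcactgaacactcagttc
Bax (chr7:45467059-45467119, minus strand): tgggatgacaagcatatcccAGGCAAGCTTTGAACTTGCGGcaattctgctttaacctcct
Zfp365 (chr10:67912686-67912745, minus strand): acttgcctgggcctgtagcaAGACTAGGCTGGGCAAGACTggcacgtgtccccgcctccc
Rps27l (chr9:66946276-66946335, plus strand): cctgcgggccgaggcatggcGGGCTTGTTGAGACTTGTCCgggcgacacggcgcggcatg
The elements of Cdkn1a, Gtse1, Ccng1 and Rps27l each held 1 mismatch to the response element, and those of Bax, Ckap2 and Zfp365 held 2. That of Cdkn1a lay 51 bases before the upstream one of its starts, and that of Gtse1 began 1 base before the start, with the other 19 bases in the annotated 5′ untranslated region of a Gtse1 transcript. In the GENCODE annotation, the element of Rps27l lay in an intron of Rps27l and that of Bax in an intron of Gm45808, a gene that overlaps Bax, and the other 4 lay outside genes. A match in these windows is a description of the letters, and binding of p53 was not measured.

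GC7-treated cells held more mRNA of most members than Mock cells. At an FDR under 0.01 (edgeR quasi-likelihood F test with Benjamini-Hochberg adjustment over all tested genes), 28 of the 35 tested members were higher in GC7, against 23.0% of all tested genes, and 2 were lower, against 23.5%. With a change of more than 2-fold required as well, 18 members were raised, against 3.17% of all tested genes, and 0 were lowered, against 5.31%. The members were chosen with earlier results of these data known, so these counts are no independent evidence of a direction. At the FDR alone, the members lower in GC7 were Btg2 and Plk3. The median log2 fold change of the 35 members was 1.01, with quartiles of 0.41 and 1.63, and that of all tested genes was 0.02, with quartiles of -0.27 and 0.31. All 4 GC7 libraries lay above all 4 Mock libraries for 29 members, against 28.1% of all tested genes, and below them for 2 members, against 27.5%. The plot of log2 fold changes by role shows these values with their confidence intervals.

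**Figure D1:**
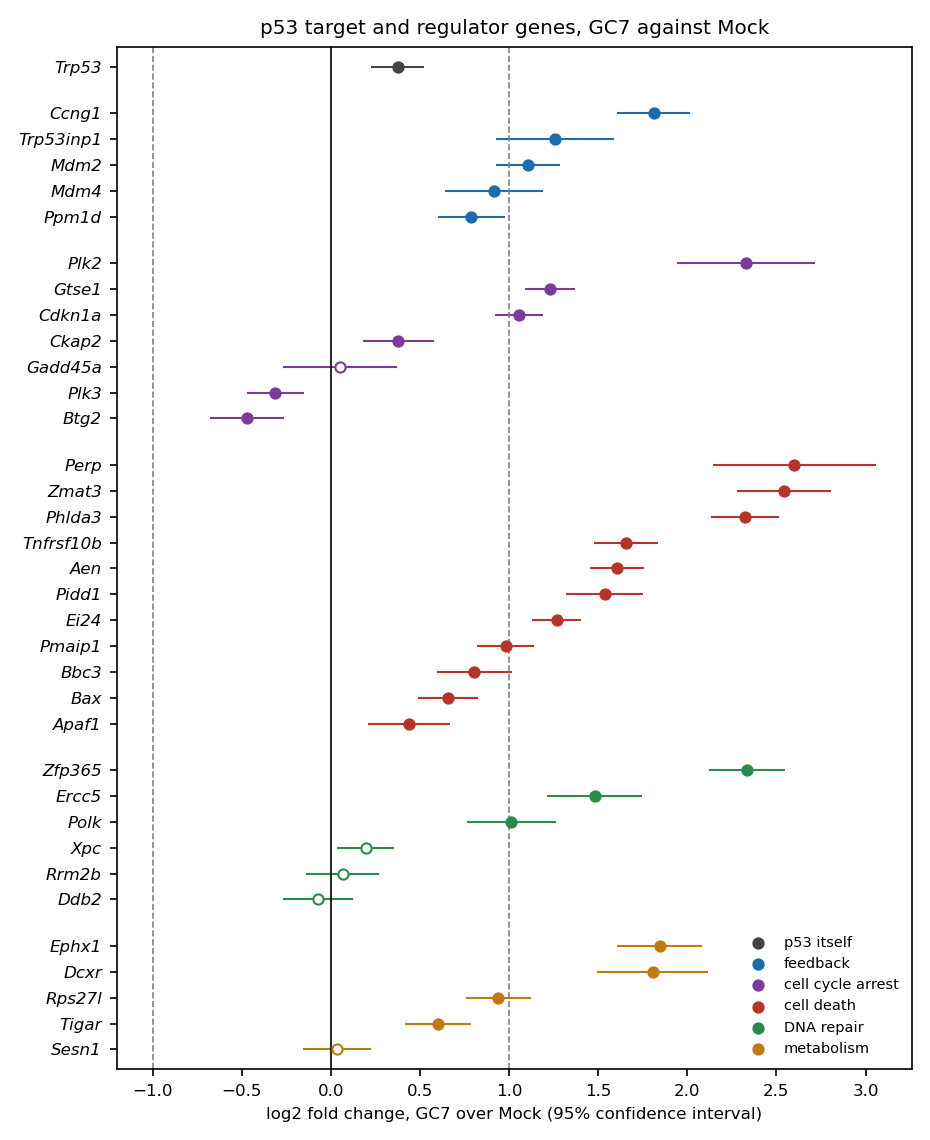
Log2 fold change of GC7 over Mock for the 35 tested members, grouped by role and ordered by size, with 95% confidence intervals from edgeR (4 libraries per group); filled points have an FDR under 0.01, open points do not, and dashed lines mark a 2-fold change. The cell death genes all lie to the right of 0, and Btg2 and Plk3 are the filled points to its left.

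The gene of p53 itself rose, with the smallest log2 fold change of the 28 members that rose. Trp53 (chr11:69580359-69591873) held 147.5, 151.1, 144.4 and 147.8 CPM in Mock replicates 1 to 4 and 196.3, 205.5, 167.3 and 196.2 CPM in GC7 replicates 1 to 4. Every GC7 library was above every Mock library, and GC7 replicate 3 was the lowest of the GC7 libraries. The means were 147.7 ± 2.7 CPM in Mock and 191.3 ± 16.6 CPM in GC7 (SD, n = 4 each), a log2 fold change of 0.37 ± 0.07 (SE, edgeR FDR = 5.1e-04). Its relatives Trp63 and Trp73, which encode p63 and p73 and can bind the same DNA sites, were below the filter, and Trp63 was at 0 counts in all 8 libraries. Those 0 counts came from these libraries alone and limit only what could be detected at this depth.

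All 5 genes of the feedback control of p53 rose, 3 of them more than 2-fold, with a median log2 fold change of 1.11. Mdm2 (chr10:117688875-117710758), the ubiquitin ligase that removes p53 and is itself a p53 target, held 104.5, 95.1, 111.4 and 105.5 CPM in the Mock libraries and 216.3, 204.0, 260.7 and 215.2 CPM in the GC7 libraries. The groups did not overlap, and the GC7 mean was 2.15 times the Mock mean, a log2 fold change of 1.11 ± 0.08 (SE, edgeR FDR = 3.3e-07). Ccng1 (chr11:40748552-40755311), which encodes cyclin G1 and recruits a phosphatase to Mdm2, held 197.5, 166.2, 226.2 and 190.2 CPM in Mock and 661.4, 654.9, 763.7 and 658.6 CPM in GC7. Its rise of 3.51-fold (log2 fold change 1.81 ± 0.09, SE, edgeR FDR = 1.5e-08) was the largest of the feedback genes, and its promoter window held a response element. Trp53inp1, whose product promotes the activating phosphorylation of p53, rose from 171.3 ± 28.3 to 409.9 ± 96.2 CPM (SD, n = 4 each). Its GC7 mean contained 1 high library, with 554.1 CPM in GC7 replicate 3 and 355.6 to 367.4 CPM in the other 3. Mdm4, the Mdm2 partner, rose by a log2 fold change of 0.92 and Ppm1d, the phosphatase Wip1 that switches off p53 and the DNA damage kinases, rose by 0.79, both under the 2-fold line.

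Set against each other per kilobase of exon, Mdm2 mRNA was higher relative to Trp53 mRNA in every GC7 library than in any Mock library. The ratio of Mdm2 to Trp53 was 0.50 to 0.61 in the Mock libraries and 0.79 to 1.24 in the GC7 libraries, with means of 0.56 ± 0.05 and 0.95 ± 0.20 (SD, n = 4 each). GC7 replicate 3 held the highest ratio. The ratio of Mdm2 to Mdm4 was 1.25 to 1.35 in the GC7 libraries, and the groups overlapped only through Mock replicate 2, at 1.43. The other Mock libraries lay between 1.05 and 1.12. Mock replicate 2 also held the least Mdm4, 193.4 CPM against 274.9 to 308.5 CPM in the other Mock libraries. These ratios are values, with no test of their own.

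The 7 genes grouped under cell cycle arrest split in direction, with 4 higher, 2 lower and 1 passing the test in neither direction. Cdkn1a (chr17:29090976-29100727), which encodes the inhibitor of cyclin-dependent kinases p21, held 262.0, 258.2, 282.4 and 254.9 CPM in Mock and 543.0, 520.6, 577.8 and 557.8 CPM in GC7. The libraries within each group lay close together and the groups were far apart, at means of 264.4 ± 12.4 and 549.8 ± 24.1 CPM (SD, n = 4 each). The log2 fold change was 1.06 ± 0.06 (SE, edgeR FDR = 4.4e-08), just past the 2-fold line. An unclassified transcript annotated on the opposite strand, AC167363.2, shares 273 bases with the Cdkn1a exons and had 20 to 43 counts in Mock and 77 to 89 in GC7. The strand setting of the counting is not given in the sources used here, so reads in those bases cannot be told apart, but they are 7.68% of the Cdkn1a exons.

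Plk2 and Gtse1 were the other arrest genes raised more than 2-fold. Plk2 (chr13:110395046-110400844), a stress-inducible polo-like kinase, held 11.4, 10.1, 16.4 and 11.6 CPM in Mock and 54.5, 51.7, 85.3 and 57.3 CPM in GC7. The highest library of each group was replicate 3, and the rise was 5.02-fold (log2 fold change 2.33 ± 0.18, SE, edgeR FDR = 4.0e-07). Gtse1 (chr15:85859745-85876573), which encodes a microtubule protein that binds p53 in G2, held 89.7, 86.4, 95.5 and 90.5 CPM in Mock and 205.4, 196.0, 224.4 and 223.0 CPM in GC7. Its log2 fold change was 1.23 ± 0.06 (SE, edgeR FDR = 1.6e-08). Ckap2, a spindle protein with a response element in its promoter window, rose by a log2 fold change of only 0.38 (edgeR FDR = 0.00367). Its call was lost without any 1 of Mock replicate 1, Mock replicate 4 and GC7 replicate 4, where the FDR was 0.01 to 0.0157.

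Btg2, Plk3 and Gadd45a did not rise. Btg2 (chr1:134075170-134079120), an antiproliferative cofactor of mRNA deadenylation, held 44.5, 48.6, 47.7 and 46.2 CPM in Mock and 32.8, 28.5, 41.0 and 33.0 CPM in GC7. All GC7 libraries were below all Mock libraries, and its log2 fold change was -0.47 ± 0.10 (SE, edgeR FDR = 0.00114). Plk3 (chr4:117128655-117133963), a kinase related to Plk2, held 25.6, 27.4, 27.0 and 28.5 CPM in Mock and 21.6, 20.5, 21.3 and 23.9 CPM in GC7. The groups did not overlap, with a log2 fold change of -0.31 ± 0.07 (SE, edgeR FDR = 0.00302). The Plk3 call was lost when library totals replaced the TMM factors (log2 fold change -0.22, FDR = 0.0202) and without any 1 of Mock replicate 4, GC7 replicate 1 and GC7 replicate 2 (FDR 0.0111 to 0.0131). Gadd45a, a stress sensor that binds the replication clamp, held 5.92 to 8.62 CPM in Mock and 6.59 to 9.21 CPM in GC7, and its log2 fold change of 0.05 had a 95% interval from -0.27 to 0.37. A transcript on the opposite strand, E230016M11Rik, shares 19.1% of its exons.

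**Figure D2:**
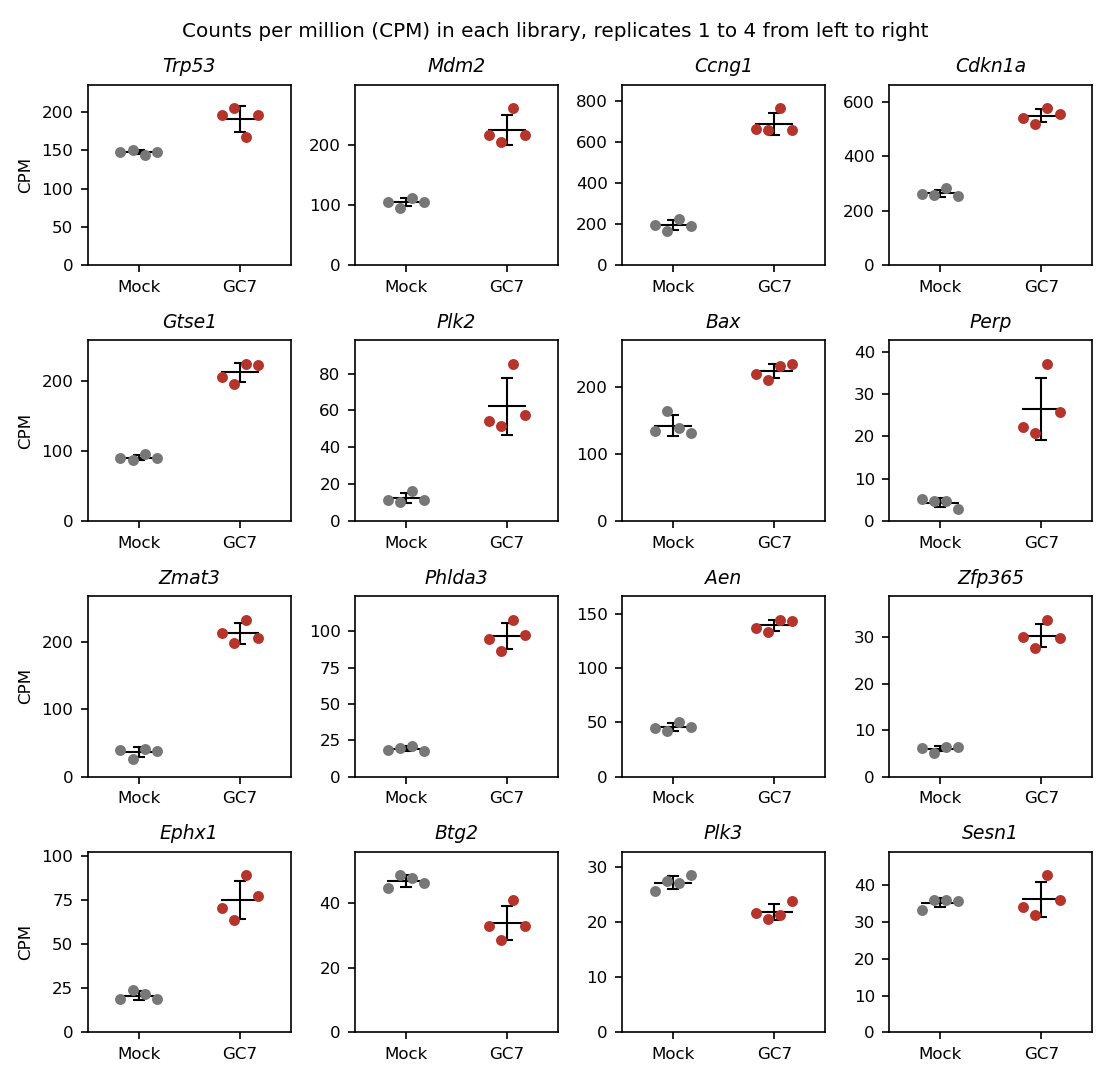
CPM in each of the 4 Mock and 4 GC7 libraries for 16 members on linear axes that start at 0, with replicates 1 to 4 from left to right and the mean ± SD as a bar. The groups overlap for Sesn1 and for no other gene shown, and GC7 replicate 3 is the highest red point for Mdm2, Ccng1, Plk2, Perp and Zmat3 but the lowest for Trp53.

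All 11 tested cell death genes rose at an FDR under 0.01, 7 of them with more than a 2-fold change, and their median log2 fold change was 1.54. Perp (chr10:18845020-18857073), a membrane protein of cell junctions and of p53-dependent apoptosis, held 5.30, 4.65, 4.64 and 2.79 CPM in Mock and 22.2, 20.9, 37.2 and 25.7 CPM in GC7. It had the largest log2 fold change of the 35 tested members, 2.60 ± 0.21 (SE, edgeR FDR = 6.2e-07), which was the 38th highest of all tested genes. Zmat3 (chr3:32334792-32366014), an RNA-binding zinc finger protein, held 39.8, 26.6, 41.7 and 37.6 CPM in Mock and 213.1, 197.3, 232.5 and 204.9 CPM in GC7. No GC7 library was near a Mock library, and the GC7 mean was 5.83 times that of Mock (log2 fold change 2.54 ± 0.12, SE, edgeR FDR = 6.5e-09). Phlda3 (chr1:135766119-135769136), which keeps the survival kinase Akt from the membrane, held 18.1, 19.8, 21.3 and 17.7 CPM in Mock and 94.6, 86.2, 108.0 and 97.2 CPM in GC7. Its log2 fold change was 2.33 ± 0.09 (SE, edgeR FDR = 8.0e-10).

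The next rises among the death genes were of similar size to one another. Tnfrsf10b, a death receptor for the ligand TRAIL, went from 15.1 ± 1.5 CPM in Mock to 47.6 ± 2.7 CPM in GC7, higher by 1.66 on the log2 scale. Aen, an exonuclease that digests DNA in apoptosis, went from 45.8 ± 3.6 CPM in Mock to 139.3 ± 5.2 CPM in GC7, higher by 1.61 on the log2 scale. Pidd1, the scaffold of the complex that activates caspase-2, went from 39.1 ± 1.0 CPM in Mock to 113.3 ± 18.3 CPM in GC7, higher by 1.54 on the log2 scale. Ei24, a membrane protein of the endoplasmic reticulum, went from 80.8 ± 3.2 CPM in Mock to 194.4 ± 11.8 CPM in GC7, higher by 1.27 on the log2 scale. For these 4 genes (SD, n = 4 each) the edgeR FDR was between 2.7e-09 and 1.0e-07 and the groups did not overlap.

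The death genes of the mitochondrial pathway rose less than 2-fold. Bax (chr7:45461697-45466898), which opens the outer mitochondrial membrane, held 133.4, 164.3, 138.4 and 131.0 CPM in Mock and 219.2, 210.5, 230.0 and 233.9 CPM in GC7. Mock replicate 2 was the highest of the Mock libraries and still below all GC7 libraries, and the log2 fold change was 0.66 ± 0.08 (SE, edgeR FDR = 1.6e-05). Bbc3, which encodes the BH3-only protein Puma, went from 64.3 ± 8.9 CPM in Mock to 112.3 ± 9.1 CPM in GC7 (SD, n = 4 each), higher by 0.80 on the log2 scale. Pmaip1, which encodes the BH3-only protein Noxa, went from 61.3 ± 1.6 CPM in Mock to 120.9 ± 12.3 CPM in GC7, higher by 0.98 on the log2 scale and just under the 2-fold line. Apaf1, the core of the apoptosome, rose by a log2 fold change of 0.44 (edgeR FDR = 0.00356). Apaf1 held 66.4 CPM in Mock replicate 2 and 92.61 to 96.03 CPM in the other Mock libraries, and its call was lost without GC7 replicate 3 (FDR = 0.0121).

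Eda2r (chrX:97333840-97377216), a receptor for ectodysplasin A2, was the member that did not pass the filter. It had 0, 0, 5 and 3 counts in Mock replicates 1 to 4 and 62, 62, 70 and 65 counts in GC7 replicates 1 to 4. The sums were 259 counts in GC7 and 8 in Mock, and their ratio, scaled by library size, was 32.4 (95% exact interval 16.2 to 75.9, counting error only). With the lower filter of edgeR's filterByExpr it was tested and had a log2 fold change of 4.94 (FDR = 8.8e-07). It passed that filter only through the GC7 group and could enter that test only by rising, so this FDR is no independent evidence of a rise.

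The 6 genes of DNA repair and nucleotide supply fell into 3 that rose more than 2-fold and 3 that did not pass the test. Zfp365 (chr10:67886103-67912662), a zinc finger protein that protects the genome during replication, held 6.12, 5.16, 6.35 and 6.43 CPM in Mock and 30.0, 27.7, 33.8 and 29.8 CPM in GC7. The libraries of a group were close together, and the log2 fold change was 2.34 ± 0.10 (SE, edgeR FDR = 2.4e-09). Ercc5, the endonuclease XPG of nucleotide excision repair, went from 26.5 ± 2.2 CPM in Mock to 74.1 ± 14.6 CPM in GC7 (SD, n = 4 each), higher by 1.48 on the log2 scale, with 94.97 CPM in GC7 replicate 3. Polk, a polymerase that copies past damaged bases, went from 40.3 ± 6.3 CPM in Mock to 81.2 ± 9.8 CPM in GC7, higher by 1.01 on the log2 scale, and fell under the 2-fold line without Mock replicate 2 or without GC7 replicate 3, where its lowest value was 0.90.

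The damage sensors of nucleotide excision repair differed from Ercc5 in value. Xpc held 19.2 to 22.2 CPM in Mock and 23.4 to 25.3 CPM in GC7, without overlap, at a log2 fold change of 0.19 (edgeR FDR = 0.0386), and passed the test only when library totals replaced the TMM factors (FDR = 0.00767). Ddb2 held 26.1 to 31.7 CPM in Mock and 25.9 to 32.4 CPM in GC7, a log2 fold change of -0.07 with a 95% interval from -0.27 to 0.12, and its value turned to 0.02 with library totals. Acp2, on the opposite strand, shares 23.8% of the Ddb2 exons. Rrm2b, the p53-inducible small subunit of ribonucleotide reductase, held 18.4 to 23.7 CPM in Mock and 20.2 to 23.6 CPM in GC7, a log2 fold change of 0.07 with a 95% interval from -0.14 to 0.27. For these 3 genes the intervals reach no further than a log2 change of 0.36 in either direction.

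Of the 5 genes grouped under metabolism, 4 rose, the ribosomal protein gene Rps27l among them. Ephx1 (chr1:180976210-181020904), the microsomal epoxide hydrolase, held 18.9, 23.9, 21.6 and 19.2 CPM in Mock and 70.8, 63.8, 89.1 and 77.6 CPM in GC7. The groups were well separated, and the log2 fold change was 1.84 ± 0.11 (SE, edgeR FDR = 4.6e-08). Dcxr, a reductase of dicarbonyls and xylulose, went from 11.1 ± 1.6 CPM in Mock to 39.0 ± 7.7 CPM in GC7 (SD, n = 4 each), higher by 1.81 on the log2 scale. Rps27l, a ribosomal protein closely related to Rps27, went from 146.8 ± 15.0 CPM in Mock to 281.7 ± 23.1 CPM in GC7, higher by 0.94 on the log2 scale. It has 6 processed pseudogenes with at least 90% identity over at least 200 bases, and none of them held more than 9 counts in any library. Tigar, a phosphatase that lowers glycolytic flux, rose by a log2 fold change of 0.60 (edgeR FDR = 6.9e-05). Sesn1, an inhibitor of mTORC1 signalling, held 33.3, 35.9, 35.9 and 35.7 CPM in Mock and 34.0, 31.8, 42.6 and 35.8 CPM in GC7. Its groups overlapped, and its log2 fold change of 0.03 had a 95% interval from -0.16 to 0.22.

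The members differed widely in level before treatment. On the scale of CPM per kilobase of exon, the highest in Mock were Rps27l at 179.9, Bax at 89.96, Cdkn1a at 74.4 and Ccng1 at 55.5. The lowest tested were Zfp365 at 1.16, Perp at 2.23, Rrm2b at 2.29 and Plk2 at 2.75. The 5 tested members with the largest log2 fold changes, Perp, Zmat3, Zfp365, Plk2 and Phlda3, held between 1.16 and 12.3 CPM per kilobase in Mock. In GC7, Rps27l at 345.3, Ccng1 at 195.0 and Cdkn1a at 154.7 were the highest on this scale.

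The same libraries tended to be high or low across the members. GC7 replicate 3 held the highest GC7 value for 25 of the 28 members that rose, and GC7 replicate 2 held the lowest for 22 of them. In Mock, replicate 3 was the highest for 16 and replicate 2 the lowest for 14. These 14 ranged from Gtse1, with 2742 exon bases, to Mdm4, with 14798. Mock replicate 2 was the highest for 5: Trp53 (4045 exon bases), Bbc3 (2124), Ephx1 (1950), Bax (1576) and Rps27l (816). The part of transcript length, RNA quality or library preparation in its values was not tested. The members' summed level was 2227 to 2557 CPM in Mock and 4784 to 5777 CPM in GC7, with GC7 replicate 3 at the top. Relative to the Mock mean, the median log2 value of the 28 members (0.5 CPM added) was 1.35 in GC7 replicate 3 and 1.10 to 1.19 in the other GC7 libraries. The members among these 28 for which GC7 replicate 3 was the lowest GC7 library were Trp53 and Tigar. GC7 replicate 3 also had the fewest counts of the 8 libraries, and the part of depth in its values was not tested. Without GC7 replicate 3 and Mock replicate 2, the same 30 members passed the FDR and 15 rather than 18 were raised more than 2-fold, with Mdm2, Polk and Trp53inp1 under the line.

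Response elements and changes were set side by side. The 7 members with an element in a promoter window all rose, 4 of them more than 2-fold, with a median log2 fold change of 1.06. Of the 20 tested members with windows but no element, 16 rose and 2 fell, 10 rose more than 2-fold, and the median was 0.96. Bases outside the windows, such as introns and regions farther upstream, were not searched, so genes without an element here may hold one elsewhere. Outside the members, 72 tested genes had an element in a window. Of those, 26 (36.1%) were higher and 15 (20.8%) lower at an FDR under 0.01, beside 22.5% and 23.6% of the 8232 tested non-members with a window and no element. More than 2-fold, 5 of the 72 (6.94%) rose and 2 (2.78%) fell, beside 2.79% and 4.93% of the genes without an element. The 5 that rose were Notch3 (4.47), Avil (3.84), Dpy19l3 (1.77), Cd80 (1.38) and Zfp783 (1.36), with log2 fold changes in brackets, and the 2 that fell were Capg (-1.09) and Slc27a1 (-1.73). These 7 genes are named after their values were seen, and no test of the shares was made.

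Other parts of the p53 pathway were counted in 4 lists. Beside their counts, 23.0% of all tested genes were higher and 23.5% lower, and 3.17% were raised and 5.31% lowered more than 2-fold. Of 22 further genes known as p53 targets, 20 were tested, 11 of them higher and 5 lower at an FDR under 0.01, with 9 raised and 2 lowered more than 2-fold and a median log2 fold change of 0.40. The largest rise was that of Ak1, an adenylate kinase, from 1.11 ± 0.46 CPM in Mock to 18.2 ± 3.8 CPM in GC7 (SD, n = 4 each), with a log2 fold change of 4.04. Every Mock library held less than 3 CPM of Ak1, so it passed the filter only through the GC7 group and could enter the test only by rising. Zfp385a, a zinc finger cofactor of p53, rose by 2.61, Psrc1, a spindle protein, by 2.44 and the death receptor gene Fas by 1.72 on the log2 scale. The largest fall was that of Gls2, the liver-type glutaminase, from 21.2 ± 1.3 CPM in Mock to 6.63 ± 0.48 CPM in GC7, with a log2 fold change of -1.68, followed by Steap3, a ferrireductase, at -1.14. None of the 34 promoter windows found for 19 of these genes held a response element, and bases outside the windows were not searched. The genes were listed with earlier results of these data known, so the count is no independent evidence of a direction.

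Genes that act on p53 from upstream held smaller values. Of 18 kinases, cofactors and ribosomal proteins, 5 were higher and 3 lower, near the 23.0% and 23.5% of all tested genes. Among the 18, 0 passed 2-fold in either direction, and the median log2 fold change was 0.06. The DNA damage kinase genes Atm (0.61), Chek1 (0.58), Prkdc (0.54) and Chek2 (0.45) rose, with log2 fold changes in brackets, and so did Rpl5 (0.52), a ribosomal protein that binds Mdm2. Rpl11, another ribosomal protein of the list, had a value of 0.22 (edgeR FDR = 0.0933). The acetyltransferase genes Ep300 (-0.58) and Kat5 (-0.34) and the deacetylase gene Sirt1 (-0.35) fell, and the groups overlapped for Ep300 and Sirt1. Atr, which senses stalled replication, had a value of -0.23 (edgeR FDR = 0.1).

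Cell cycle genes that p53 and p21 repress through the DREAM complex stayed near 0 in median. Of 18 such genes, 1 was higher and 3 were lower, 0 passed 2-fold in either direction, and the median log2 fold change was -0.03. Ccnb2 (-0.52), Plk1 (-0.39) and Aurkb (-0.35), which act in mitosis, fell. Cdk1 held 148.3 ± 7.3 CPM in Mock and 152.0 ± 7.4 CPM in GC7 (SD, n = 4 each), a log2 fold change of 0.04 ± 0.06 (SE, edgeR FDR = 0.638). Without Mock replicate 2 and GC7 replicate 3, 6 of these genes were lower.

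**Figure D3:**
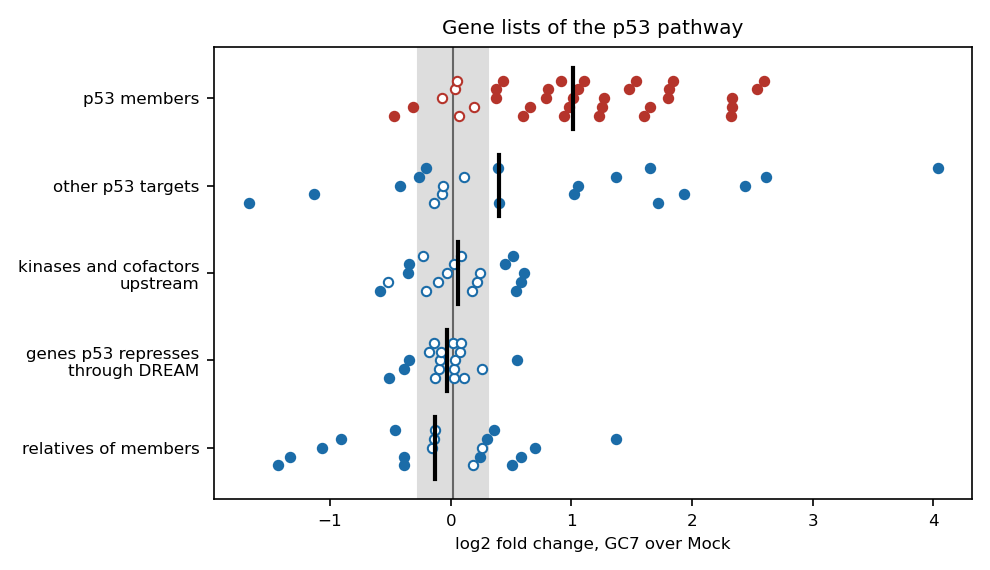
Log2 fold change of GC7 over Mock for every tested gene of the p53 members and of 4 other lists, with 1 point per gene, filled at an FDR under 0.01, a black bar at each list's median, and the median and quartiles of all 11189 tested genes as a line and a grey band. The members' median is 1.01 and those of the other lists lie between -0.13 and 0.40.

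Relatives of the members gave a further comparison within gene families, with Ddb1 added as the binding partner of Ddb2. Of 23 such genes, 19 were tested, 7 were higher and 7 lower, 1 was raised and 3 were lowered more than 2-fold, and the median log2 fold change was -0.13. Sesn2 is also among the further targets, and Plk1 is also among the DREAM genes. Cdkn1b, which encodes the p21 relative p27, fell from 115.6 ± 4.8 to 84.2 ± 5.3 CPM, and the ratio of Cdkn1a to Cdkn1b per kilobase was 2.78 to 3.02 in Mock and 8.08 to 8.75 in GC7. Ccng2, the relative of Ccng1, fell from 120.6 ± 4.4 to 57.5 ± 5.5 CPM (log2 fold change -1.07), and the ratio of Ccng1 to Ccng2 per kilobase was 2.12 to 2.82 in Mock and 18.1 to 19.1 in GC7. The groups did not overlap in either ratio.

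In other families some relatives moved against their member and some with it. In the Gadd45, sestrin and ribonucleotide reductase families the member was the gene that did not pass the test. Rrm2 rose by 0.36 on the log2 scale, beside 0.07 for Rrm2b. Phlda1 fell by 1.43 on the log2 scale while Phlda3 rose by 2.33. Gadd45g and Gadd45b fell by 1.33 and 0.91, and Gadd45a had a value of 0.05. Sesn2, which answers to amino acid and other stress as well as to p53, went from 50.5 ± 1.9 CPM in Mock to 130.5 ± 3.3 CPM in GC7 (SD, n = 4 each), higher by 1.37 on the log2 scale, and Sesn3 rose by 0.51, beside 0.03 for Sesn1. Rps27 rose by 0.70, beside 0.94 for Rps27l, as did Zmat1 by 0.58, beside 2.54 for Zmat3, and Ppm1a by 0.30, beside 0.79 for Ppm1d. Of the relatives of Polk (1.01), Polh rose by 0.24 and Poli fell by 0.39. Bak1, the relative of Bax, had a value of -0.13 (edgeR FDR = 0.104). The difference between a member and its relative was not tested.

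**Figure D4:**
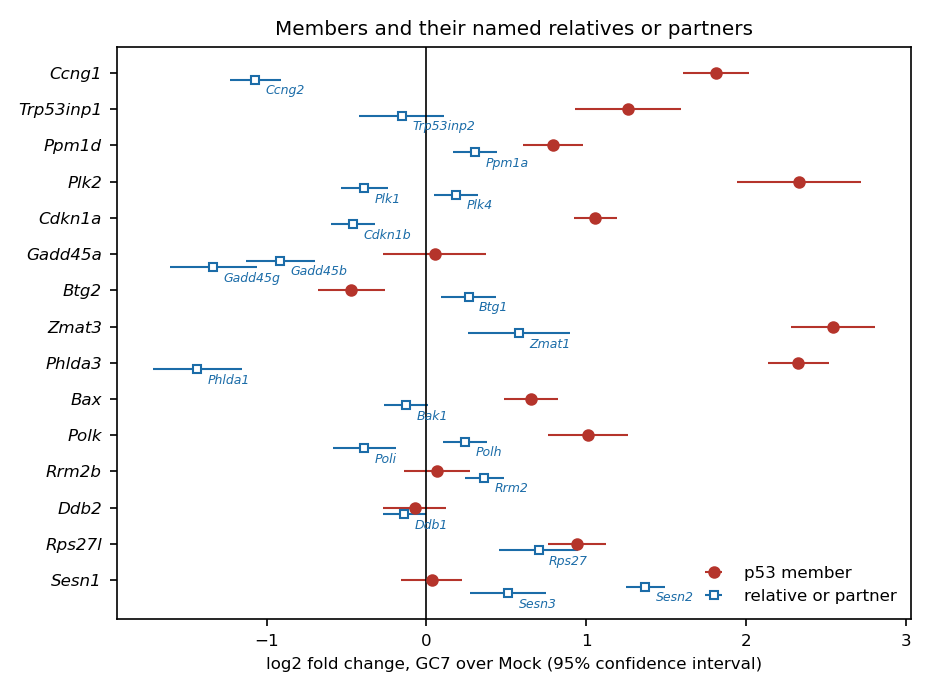
Log2 fold change of GC7 over Mock with 95% confidence intervals for members (red circles) and for their tested relatives or partners (blue squares, named). Ccng1, Cdkn1a and Phlda3 lie to the right of 0 and Ccng2, Cdkn1b and Phlda1 to its left, while for the sestrins Sesn2 and Sesn3 lie to the right and Sesn1 at 0.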

How the data were processed

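Messenger RNA was sequenced from 4 GC7 and 4 Mock libraries of OT-1 CD8 T cells, and groups and replicate numbers were taken from the sample titles. The authors deposited raw read counts per gene, 1 table per library. Per the labels' processing notes, Cutadapt, STAR, featureCounts and edgeR were used with GRCm38; the handling of strand and of reads matching several places is not given in the sources used here. Exons that overlap other genes, and copies with at least 90% identity over at least 200 bases, were looked up in the GENCODE annotation, whose identifiers matched all 55536 genes.

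The 11189 genes that exceeded 3 CPM in 4 or more of the libraries entered the test with edgeR (version 4.0.16, R version 4.3.3): TMM factors, group as the only term, quasi-likelihood F test, with p-values adjusted by Benjamini-Hochberg over these genes, called at an FDR under 0.01 and, for raised or lowered, more than a 2-fold change. In counts drawn for the GC7 and Mock comparison over 11189 genes, 199 of 200 changed genes were recovered with the right sign. All drawn changes were larger than 2-fold, so recovery of smaller changes was not tested. All 36 members were to be named; the members and lists were chosen with earlier results of these data known. CPM are scaled by TMM factors. Alternatives were RLE factors, library totals, TMM without mitochondrially encoded genes, no filter, filterByExpr, DESeq2 (version 1.42.0), limma-voom (version 3.58.1), robust estimation, a replicate block and each library left out. Leaving out Mock replicate 2 and GC7 replicate 3 together was chosen after seeing the data. Total counts of 17528776 to 25284730 make 3 CPM worth 52.6 to 75.9 reads. The value of 1 gene of the DREAM list is not reported here.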

Additional observations from a re-analysis of the deposited data

Results flagged for a closer look

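In 7 of 70 groups of 4 libraries (35 members, GC7 and Mock apart), the gap from the highest or lowest library to its neighbour, as a share of the group's range, was over Dixon's 95% critical value. Chance flags about 1 in 20 groups, or 3.5 of 70. GC7 replicate 3 was the high library in 5 of them: Mdm4 (0.919), Ccng1 (0.94), Trp53inp1 (0.94), Plk2 (0.831) and Gadd45a (0.882). Mock replicate 2 was low for Apaf1 (0.885), and Mock replicate 1 was low for Sesn1 (0.929). Over all fits with a single library left out, the lowest log2 fold changes were 0.79 for Mdm4, 1.74 for Ccng1, 1.09 for Trp53inp1 and 2.15 for Plk2.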

How the results depend on the processing

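The counts of members higher (27 to 29), and raised more than 2-fold (15 to 21), stayed within 1.5 times their values under every alternative run. Leaving out single libraries gave 1 to 2 lower members (1 without Mock replicate 4, GC7 replicate 1 or GC7 replicate 2), 3 to 5 lower further targets (3 without GC7 replicate 4), 1 to 4 lower upstream genes (1 without GC7 replicate 3 or GC7 replicate 4) and 260 to 366 raised genes over all tested. Library totals in place of TMM factors gave 1 lower member, 3 further targets and 1 upstream gene, moved the median of all genes by 0.09 on the log2 scale and turned Ddb2 to 0.0193. Without a filter, 773 genes were raised and 1189 lowered more than 2-fold, with filterByExpr 605 and 1007, and more genes were tested in both. Without Mock replicate 2 and GC7 replicate 3 together, 227 of all genes were raised and 6 DREAM genes were lower (3 with every single library left out); the cause was not tested. That setting turned Gadd45a (-0.0938), Rrm2b (-0.0218) and Sesn1 (-0.0439) negative. Leaving out single libraries gave -0.0623 to 0.1508 for Gadd45a (-0.0354 without Mock replicate 1), at most 0.1245 for Rrm2b and -0.0488 to 0.0889 for Sesn1 (-0.0044 without Mock replicate 1). None of these genes passed the test.

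With the replicate block, the same 30 members passed the FDR and the same 18 passed 2-fold. Deviations from the group means correlated between -0.18 and 0.27 for the same number and between -0.31 and 0.42 for different numbers. The ranges overlap, so these values cannot tell whether libraries of the same number share a mouse or culture.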
